A study of Mus musculus with 8 samples.

Results

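The genes described are Nfe2l2, which encodes the transcription factor Nrf2, and 7 genes whose proteins hold Nrf2 back, act beside it or pair with it: Nfe2l1, Keap1, Cul3, Bach1, Mafg, Mafk and Maff. They were chosen by gene symbol, and all 8 were among the 12339 genes of the deposited table. RNA was taken from mouse retinas at postnatal day 14 of oxygen-induced retinopathy (OIR), a model in which pups kept in high oxygen return to room air and the inner retina, short of oxygen, grows new vessels. The RNA was pulled down with tagged ribosomes (RiboTag) from Müller cells, glia that span the retina, and sequenced. The 4 cKO libraries come from mice in which Nrf2 was conditionally knocked out in Müller cells, the 4 WT libraries from wild-type mice, and all 8 came from OIR retinas. Libraries are numbered 1, 3, 4 and 5 in each group, and a cKO and a WT library of equal number are called a pair. What an equal number stands for is not given in the sources used here. The Cre driver, the deleted exon, the strain and the number of retinas per library are not given in the sources used here, so p-values measure the spread between these libraries, which may be technical.

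Nrf2 is a CNC (cap'n'collar) transcription factor that switches on antioxidant, detoxification and iron-handling genes. In unstressed cells Keap1, a sensor with reactive cysteines, ties Nrf2 to the Cul3 ubiquitin ligase, and Nrf2 is degraded soon after it is made. Oxidants and electrophiles modify Keap1, Nrf2 then builds up and binds DNA together with a small Maf protein (MafG, MafK or MafF) at antioxidant response elements. Bach1 pairs with the same small Mafs and represses many of the same genes until heme removes it from DNA, and Nfe2l1 (Nrf1) is a relative of Nrf2 known for keeping up proteasome genes. Much of this control acts on protein, which was not measured here.

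Nfe2l2 (ENSMUSG00000015839) lies on the minus strand of chr2:75675513-75704641 in GRCm38. Its annotated coding transcript has 5 exons and 2475 bases, of which the last exon holds 1672 bases, or 67.6%. Which exons the FPKM value counts is not given in the sources used here. Mafg lies on chr11:120625117-120633600 and Nfe2l1 on chr11:96817414-96829968, both on the minus strand. Keap1 lies on chr9:21229730-21239361 and Cul3 on chr1:80264923-80340480, also on the minus strand. Bach1 (chr16:87698945-87733346), Mafk (chr5:139791513-139802653) and Maff (chr15:79346621-79359076) lie on the plus strand. Exons of 3 of the 8 genes overlap those of another gene. Mafg shares 124 bases with its same-strand neighbour Sirt7, Keap1 shares 510 bases with the antisense gene Gm16754, and Mafk shares 169 bases with the opposite-strand gene Tmem184a. How reads in these stretches were assigned is not stated, so the values of these 3 genes are uncertain to that extent.

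Mafg is itself a known Nrf2 target, and Nfe2l2 can act on its own promoter. The core of the antioxidant response element, TGACNNNGC, was therefore searched on both strands of RefSeq promoter windows (GRCm38.p6), which run from 250 bases before to 50 after a start site. It was found in windows of 4 of the 8 genes (Nfe2l2, Mafg, Mafk and Maff, in 4 of 14 windows). Of all 32851 windows of the same length, 12.4% held it. Of 9387 measured genes with a window, 16.9% held it in any window. A match is a description of the letters, not of binding. The sequences below are those of the 4 genes with a match. Nfe2l2 and Mafg are given at more length, since their RNA was lower in cKO in every pair. Mafk RNA was higher in every pair, and Maff RNA had a higher mean in cKO. The sequences read 5′ to 3′ on the strand of the gene, with the match in capitals. The match lies on the gene's own strand in Nfe2l2 and Maff and on the opposite strand in Mafg and Mafk. The first sequence covers the bases before the Nfe2l2 start (chr2:75704664-75704913) and the second those before the first annotated exon of Mafg (chr11:120633601-120633797). The other two are the matches of Mafk (chr5:139791513-139791541) and Maff (chr15:79346499-79346527) with 10 bases on each side.
Nfe2l2: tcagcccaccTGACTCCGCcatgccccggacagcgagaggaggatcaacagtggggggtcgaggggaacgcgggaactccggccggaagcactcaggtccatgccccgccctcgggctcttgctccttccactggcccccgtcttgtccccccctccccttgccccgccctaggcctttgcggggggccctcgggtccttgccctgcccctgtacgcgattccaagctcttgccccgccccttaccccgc
Mafg: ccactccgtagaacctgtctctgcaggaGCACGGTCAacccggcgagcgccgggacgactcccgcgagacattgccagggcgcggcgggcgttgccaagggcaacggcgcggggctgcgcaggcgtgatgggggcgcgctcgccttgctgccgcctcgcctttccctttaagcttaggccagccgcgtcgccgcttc
Mafk: gatcccggaaGCGGTGTCAgtactgggga
Maff: gggcgtctcaTGACTCTGCcactggaaag
The match begins 240 bases before the RefSeq start site in Nfe2l2, 222 in Mafg, 112 in Maff and 13 in Mafk. By the gene positions given above, the Mafk match (chr5:139791523-139791531) lies inside the gene. The window of Cul3 (chr1:80340641-80340940), which held no match, lies wholly upstream of the gene by those positions.

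The libraries were alike in scale and not of Müller cells alone. FPKM (fragments scaled to transcript length and to the size of the library) summed to between 410581 and 448130 per library, and the number of fragments behind it is not given, so no counting interval can be put on a value. The Müller cell genes Glul (3150 ± 840 FPKM in cKO and 3875 ± 825 in WT) and Apoe (2466 ± 520 and 2656 ± 694; SD, n = 4 each) were abundant, and so was the rod gene Pdc (916 ± 291 and 751 ± 240.4). Rpl22, the ribosomal protein tagged in RiboTag, was at 163 ± 15.9 FPKM in cKO and 152 ± 15.1 in WT (adjusted p = 0.709 without the replicate block and 0.329 with it). Xist, made from the inactive X chromosome of females, was at 0.0863 FPKM in cKO 4 and 0.00505 in cKO 5, against 25.01 to 72.1 in the other 6 libraries. Genes annotated as TEC (transcripts still to be tested by experiment) or sense intronic, called the TEC measure here, averaged 1.64 to 2.46 in cKO and 2.005 to 2.76 in WT (mean log2 of 81 genes), and were lower in cKO in each pair. Libraries of the same number deviated together from their group means, so fits with the number as a block are given beside those without it. The pairing was thus judged on the same values that the blocked fits test, and not on a label.

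Nfe2l2 RNA, the RNA of the targeted gene, was lower in cKO but still present. It stood at 12.7, 16.5, 14.8 and 10.4 FPKM in cKO libraries 1, 3, 4 and 5, against 17.5, 18.8, 23.1 and 17.5 FPKM in WT libraries 1, 3, 4 and 5. Every cKO value lay below every WT value, with cKO 3 the highest of its group and cKO 5 the lowest. The means were 13.6 ± 2.66 FPKM in cKO and 19.2 ± 2.66 in WT (SD, n = 4 each), a difference of −0.50 on the log2 scale (SE 0.15, 95% interval −0.83 to −0.16), or 29.1% lower on the scale of FPKM + 0.5. An exact two-sided permutation test gave p = 0.0286, the smallest that 70 assignments allow. Exchanging the labels within the 4 pairs alone allows 16 assignments and gave an exact p of 0.125, the smallest that this design allows. Across the whole table limma gave an adjusted p of 0.453 unblocked and 0.0219 with the replicate block, so the fall passed the threshold of 0.05 with the block and not without it. With the block it did not pass without pair 1 (adjusted p = 0.0785), pair 4 (0.0846) or pair 5 (0.0634), and passed without pair 3 (0.0182). Values of cKO below all WT values occurred in 2.28% of the 12339 genes.

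The size of the difference varied between pairs. Nfe2l2 differed by −0.44 in pair 1, −0.18 in pair 3, −0.63 in pair 4 and −0.73 in pair 5. In pairs 4 and 5, those with the largest differences, Xist was near 0 in the cKO library and present in the WT library. Both libraries of pairs 1 and 3 had Xist. In the 6 libraries with Xist (all of WT, cKO 1 and cKO 3) Nfe2l2 differed by −0.39 (limma without the block, adjusted p = 0.9998). With Xist as a covariate it differed by −0.36 without the block and −0.24 with it (adjusted p = 0.309). The part of Xist status in the Nfe2l2 difference was not tested. With the TEC measure as a covariate, without the block, the difference was −0.39 (adjusted p = 0.832). With both the block and that covariate it was 0.81 and did not pass, a fit in which the covariate differed by −0.41 to −0.29 in all 4 pairs and so could hardly be told apart from genotype. In bulk RNA of this kind, fewer Müller cells in the pull-down and less Nfe2l2 RNA per cell cannot be told apart.

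Marker genes of several retinal cell types also passed the test with the block, where 7.59% of all genes fell and 2.99% rose. The 14 Müller genes summed to 9651 to 13985 FPKM in cKO and 9344 to 15942 in WT, and with the block 2 fell, 0 rose and 12 did not pass. The 9 rod genes (Pdc among them) summed to 3416 to 5406 FPKM in cKO and 3086 to 4996 in WT, with 1 higher. Of 9 bipolar cell genes (highest Pcp2) 4 rose, with sums of 2291 to 2800 in cKO and 1796 to 2292 in WT. Of 6 measured amacrine and horizontal cell genes (of 10, highest Pax6 and Slc6a9) 3 fell, with sums of 159 to 202 in cKO and 207 to 237 in WT, which do not overlap. Of 7 measured ganglion cell genes (of 9, highest Nefl and Thy1) 4 fell, with sums of 52.4 to 73.8 in cKO and 71.0 to 96.9 in WT. Of 7 cone genes 4 fell (Opn1sw, Opn1mw, Arr3 and Pde6c) and 1 rose (Gngt2). The sums, to which Gngt2 and Gnat2 gave the most, were 101 to 117 in cKO and 90.8 to 121 in WT. Of 4 measured astrocyte genes (of 5, highest Gfap and Aldh1l1) 2 rose, with sums of 238 to 391.6 in cKO and 113 to 264 in WT. Of the vessel genes 3 of 9 were measured (highest Kdr and Rgs5), of which Rgs5 rose, with sums of 181 to 223 in cKO and 170 to 244 in WT. Of the pigment epithelium genes 2 of 7 were measured (Ttr and Rdh5), with sums of 5.57 to 9.33 in cKO and 5.02 to 10.6 in WT. None of the 8 microglia genes, Cx3cr1 and Csf1r among them, was in the table. The part of these cell types in the Nfe2l2 difference was not tested.

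**Figure D1:**
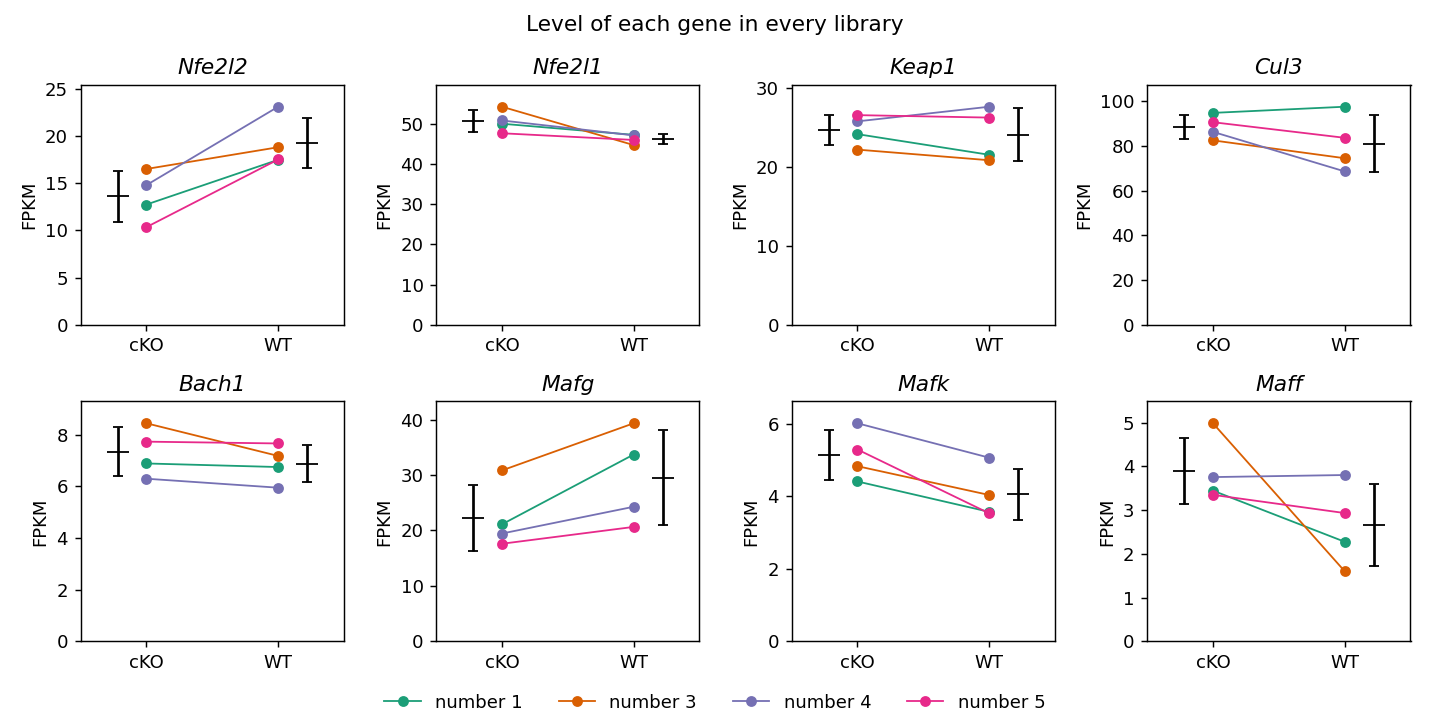
FPKM of each of the 8 genes (linear axes from 0) in cKO and WT libraries, with lines joining libraries of the same number and black bars for the mean ± SD of 4 libraries. Nfe2l2 and Mafg are lower in cKO in all 4 pairs, and for Nfe2l2 and Nfe2l1 the groups do not overlap.

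Nfe2l1, the relative of Nrf2, stood slightly higher in cKO, with the tightest values of the 8 genes. It was at 50.003, 54.2, 50.8 and 47.6 FPKM in cKO libraries 1, 3, 4 and 5, against 47.2, 44.7, 47.1 and 46.0 FPKM in WT libraries. All cKO values lay above all WT values, which was so in 2.06% of all genes, and the gap between cKO 5 and WT 1 was small. The means were 50.7 ± 2.73 FPKM in cKO and 46.2 ± 1.18 in WT, a log2 difference of 0.13 (SE 0.08, 95% interval −0.05 to 0.30). Nfe2l1 did not pass in limma (adjusted p = 0.537 without the block and 0.233 with it), and with the block its difference was 0.080 without pair 3.

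Keap1 and Cul3, which together mark Nrf2 for degradation, showed no difference beyond the spread between libraries. Keap1 was at 24.2, 22.2, 25.8 and 26.6 FPKM in cKO libraries, against 21.6, 20.9, 27.6 and 26.3 in WT libraries. The ranges overlapped, pair 4 was lower in cKO and the other 3 pairs were higher. The log2 difference was 0.04 (95% interval −0.21 to 0.30, adjusted p = 0.898 without the block and 0.732 with it). The antisense gene Gm16754 was at 4.51 ± 0.965 FPKM in cKO and 3.75 ± 1.03 in WT, a level well below that of Keap1 on either side.

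Cul3, the scaffold of the ligase, was the most abundant of the 8 genes. It was at 94.8, 82.5, 86.3 and 90.7 FPKM in cKO libraries, against 97.6, 74.5, 68.6 and 83.7 in WT libraries. The cKO values lay inside the WT range, which ran from the highest (WT 1) to the lowest (WT 4) value of all 8 libraries. The log2 difference was 0.14 (SE 0.12, 95% interval −0.12 to 0.40, adjusted p = 0.646 without the block and 0.254 with it). It was 0.23 without WT 1 and 0.062 without WT 4.

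Bach1, the repressor that competes for the small Mafs, was at 6.89, 8.44, 6.29 and 7.73 FPKM in cKO libraries, against 6.75, 7.18, 5.95 and 7.66 in WT libraries. It was higher in cKO in all 4 pairs by small amounts, and the groups overlapped. The log2 difference was 0.08 (SE 0.13, 95% interval −0.20 to 0.37, adjusted p = 0.802 without the block and 0.580 with it). Over the leave-one-out fits it ran from 0.018 without cKO 3 and 0.020 without WT 4 to 0.15 without cKO 4.

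Among the small Mafs, which lack an activation domain of their own and lend CNC factors their DNA binding, Mafg was lower in cKO while Mafk and Maff had higher means. Mafg stood at 21.1, 30.8, 19.4 and 17.6 FPKM in cKO libraries 1, 3, 4 and 5, against 33.7, 39.3, 24.3 and 20.6 in WT libraries 1, 3, 4 and 5. The groups overlapped, since Mafg spread widely within each of them, but each cKO value was below its WT partner. The means were 22.2 ± 5.90 FPKM in cKO and 29.5 ± 8.57 in WT, and the log2 difference was −0.39 (SE 0.22, 95% interval −0.88 to 0.11 without the block). It passed with the block (adjusted p = 0.0296, 95% interval −0.58 to −0.19) and not without it (0.516). With the block, Mafg did not pass without pair 1 (adjusted p = 0.0953), pair 3 (0.0818) or pair 4 (0.0784), and passed without pair 5 (0.0428). Without the block the difference was −0.23 without WT 3 and −0.55 without cKO 3.

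Mafg ranked the libraries as the TEC measure did. Ranked from high to low, the 8 libraries stood in the same order for both: WT 3, WT 1, cKO 3, WT 4, cKO 1, WT 5, cKO 4 and cKO 5. For none of the other 7 genes did more than 2 of the 8 libraries hold the same rank as in that measure. Equal ranks are a strict count, which does not show that the other genes are unrelated to the measure. The share of all genes with this order was not counted. Hdac10, Ppip5k1 and Ogt, all named below, have it too, so the order is not particular to Mafg. With the TEC measure as a covariate, without the block, the Mafg difference was −0.011 and that of Nfe2l2 −0.39. In the 6 libraries with Xist the Mafg difference was −0.16. With the block and Xist as a covariate it was −0.53 (adjusted p = 0.0881). The same-strand neighbour Sirt7, a nuclear sirtuin, was at 12.2, 16.0, 14.4 and 10.1 FPKM in cKO libraries, against 18.3, 19.3, 19.2 and 15.9 in WT libraries (log2 difference −0.47, adjusted p = 0.453 without the block and 0.0152 with it). Its groups overlapped only at cKO 3 and WT 5.

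**Figure D2:**
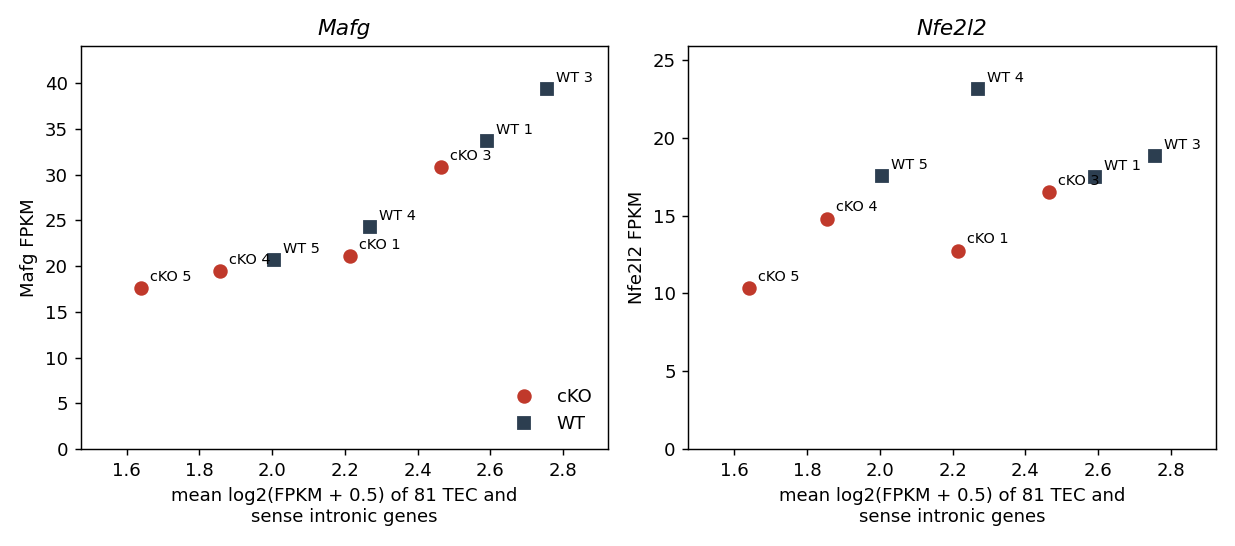
FPKM of Mafg (left) and Nfe2l2 (right) in each library against the mean log2(FPKM + 0.5) of 81 TEC and sense intronic genes, with cKO as red circles and WT as dark squares. The order of the 8 libraries is the same on both axes for Mafg and differs for Nfe2l2.

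Mafk was at 4.40, 4.82, 6.01 and 5.28 FPKM in cKO libraries, against 3.57, 4.03, 5.06 and 3.53 in WT libraries. It was higher in cKO in all 4 pairs, while WT 4 stood above 2 of the cKO libraries. The log2 difference was 0.31 (SE 0.15, 95% interval −0.03 to 0.66) and did not pass (adjusted p = 0.483 without the block and 0.113 with it). Tmem184a, which overlaps Mafk, was not in the table.

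Maff, the small Maf known to be induced by stress, was at 3.44, 4.98, 3.75 and 3.35 FPKM in cKO libraries, against 2.27, 1.60, 3.80 and 2.93 in WT libraries. It had the widest range of the 8 genes over all libraries, 3.11-fold, and its lowest and highest values were both in pair 3. The log2 difference of 0.51 (SE 0.23, 95% interval −0.01 to 1.03) did not pass (adjusted p = 0.474 without the block and 0.186 with it). It was 0.33 without WT 3, and with the block 0.22 without pair 3. In the single pairs it ran from −0.02 in pair 4 to 1.38 in pair 3.

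The counts of calls among the 8 genes are given here beside those of all genes. Without the block 0 of the 8 passed, as did 0 of 12339 genes (0%), and at an unadjusted p under 0.05 Nfe2l2 alone of the 8 was counted, where the share of all genes was 10.6% (6.67% lower and 3.95% higher). With the block 2 of the 8 passed, both lower, and of all genes 1305 passed, 10.6%, of which 7.59% were lower and 2.99% higher. In 5 of the 8 genes the difference had the same sign in all 4 pairs (Nfe2l2 and Mafg lower, Nfe2l1, Bach1 and Mafk higher), against 36.2% of all genes (19.5% lower and 16.7% higher). The groups did not overlap in 2 of the 8, Nfe2l2 and Nfe2l1, against 4.34% of all genes. The median log2 difference of the 8 genes was 0.11, and that of all genes 0.00.

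**Figure D3:**
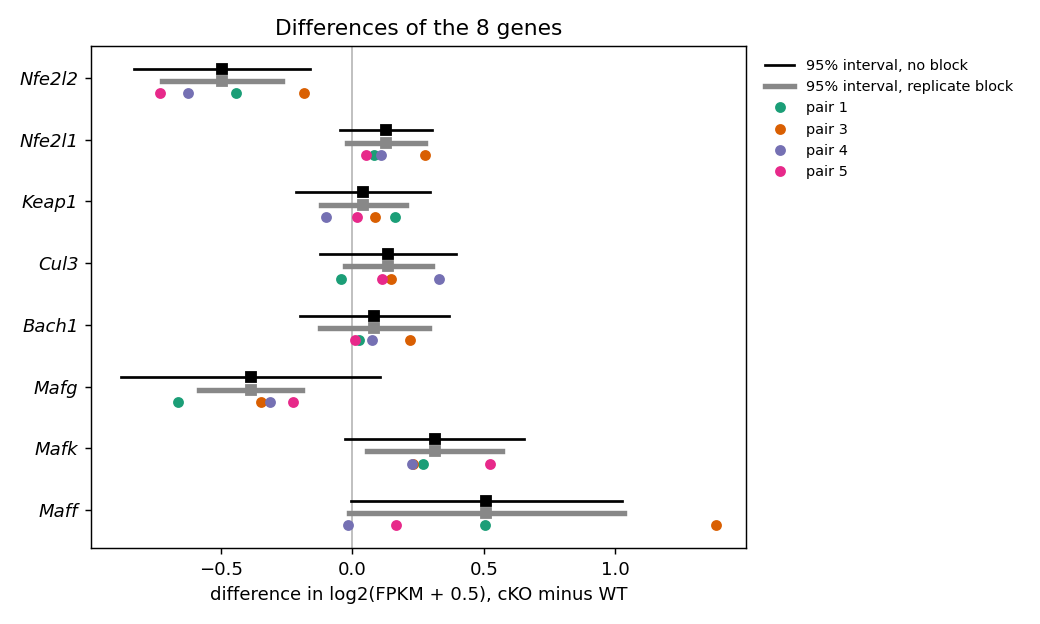
Difference in log2(FPKM + 0.5), cKO minus WT, for the 8 genes, with squares for the fitted value, bars for its 95% interval without the block (black) and with it (grey), and coloured points for the single pairs. The grey intervals of Nfe2l2 and Mafg lie below 0 and clear of it, and pair 3 of Maff stands apart at 1.38.

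The levels of the 8 genes are set side by side as FPKM, which is scaled to transcript length. The length used for each gene is not given in the sources used here, so the order holds for the deposited values only. Over the 8 libraries Cul3 (mean 84.8 FPKM, above 92.1% of the measured genes) came first, followed by Nfe2l1 (48.5), Mafg (25.9), Keap1 (24.4), Nfe2l2 (16.4, above 52.4% of the genes), Bach1 (7.11), Mafk (4.59) and Maff (3.27, above 8.98%). Cul3 was above Nfe2l1, and Nfe2l1 above Mafg, in all 8 libraries with no overlap of their ranges. Mafg and Keap1 did not differ beyond their spread, with Mafg the higher in 3 of 8 libraries. Keap1 exceeded Nfe2l2, Nfe2l2 exceeded Bach1 and Bach1 exceeded Mafk within every library, although the ranges over libraries overlapped for Keap1 and Nfe2l2 and for Bach1 and Mafk. Mafk exceeded Maff in 7 of 8 libraries, and their ranges overlapped.

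The balance between these RNAs, which depends on the same lengths, is given as a description, with no test. The ratio of Nfe2l2 to Keap1 FPKM was 0.528, 0.744, 0.574 and 0.390 in cKO libraries 1, 3, 4 and 5, against 0.812, 0.903, 0.836 and 0.667 in WT libraries, with cKO 3 inside the WT range. The ratio of Nfe2l2 to its relative Nfe2l1 averaged 0.267 ± 0.0393 in cKO and 0.416 ± 0.0545 in WT, without overlap. This follows from Nfe2l2 and Nfe2l1 themselves, whose groups did not overlap and which differed in opposite directions. The ratio of Nfe2l2 to the repressor Bach1 averaged 1.88 ± 0.417 in cKO and 2.85 ± 0.710 in WT, and the groups overlapped. Its lowest value was 1.34, in cKO 5, so Nfe2l2 FPKM stood above Bach1 FPKM in every library of both groups.

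Mafg made up most of the small Maf RNA in all libraries, 66.6% to 75.9% of the summed FPKM of the 3 genes in cKO and 73.3% to 87.5% in WT. Maff made up 11.9% to 12.9% in cKO and 3.56% to 11.5% in WT, without overlap, and Mafk 11.9% to 20.6% in cKO and 8.97% to 15.3% in WT. Maff FPKM itself overlapped between the groups, and its share depends also on Mafg, which was lower in cKO in each pair. The summed FPKM was 26.2 to 40.6 in cKO and 27.1 to 44.96 in WT. The makeup of the small Maf RNA thus held a smaller mean share of Mafg in cKO, 70.6 ± 4.53% against 80.5 ± 6.89% in WT, on sums that overlapped.

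**Figure D4:**
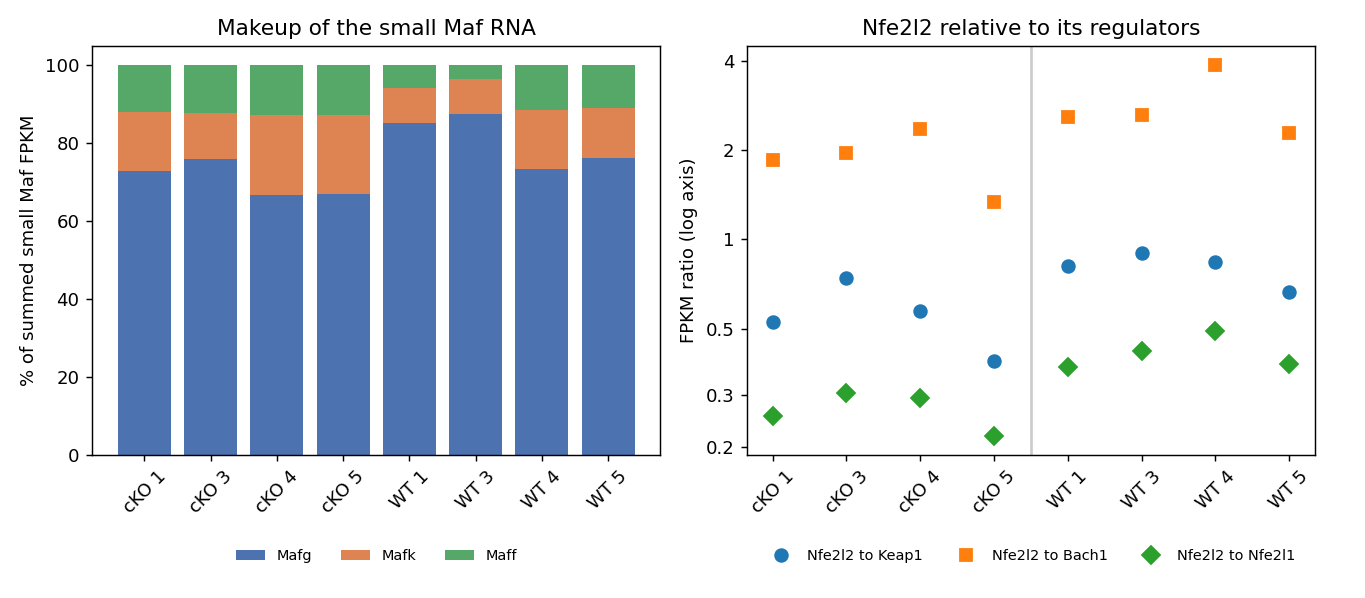
Left, share of Mafg, Mafk and Maff in their summed FPKM in each library. Right, ratio of Nfe2l2 to Keap1, Bach1 and Nfe2l1 FPKM in each library on a log axis. The ratios to Nfe2l1 lie at 0.217 to 0.305 in cKO and 0.370 to 0.491 in WT.

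Other genes of the pathway were counted from lists, chosen by known roles. Of 103 genes in the 9 lists, 95 were measured, and with the block 5 fell (Mafg among them), 1 rose and 89 did not pass. Of all genes 10.6% passed with the block (7.59% lower and 2.99% higher), so the lists held no larger share of calls than the table as a whole. The remaining CNC and Maf factors (4 of 7 measured) gave no call. Maf, a large Maf, was at 13.4 ± 1.43 FPKM in cKO and 15.03 ± 1.31 in WT (adjusted p = 0.188 with the block). Nfe2, Nfe2l3 and Mafa were not in the table.

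The ligase machinery around Keap1 gave no call. All 18 genes of Cul3 ligase assembly and neddylation were measured and 0 passed with the block, with a median log2 difference of 0.08. Ube2m, which loads Nedd8 onto cullins, came nearest, at 84.3 ± 12.2 FPKM in cKO and 69.8 ± 10.1 in WT (adjusted p = 0.0574). Cops6, a subunit of the signalosome that strips Nedd8 off again, was at 105 ± 10.9 and 91.7 ± 6.23 (0.101). Of the 12 genes of other ligases that act on Nrf2, 0 passed (median −0.07), with Cul4b at 12.6 ± 2.34 FPKM in cKO and 14.7 ± 1.57 in WT (0.113) and Skp1a at 277 ± 18.9 and 245 ± 38.0 (0.136).

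Among proteins that bind Keap1 (6 of 8 measured, median 0.00), Ikbkb alone fell with the block, the other 5 not passing. Ikbkb, an NF-kB kinase that Keap1 can target, was at 13.97, 14.7, 13.3 and 15.1 FPKM in cKO libraries, against 20.4, 25.2, 17.4 and 16.2 in WT libraries. Its groups did not overlap (log2 difference −0.44, adjusted p = 0.453 without the block and 0.0400 with it). Palb2, a DNA repair protein with a Keap1-binding motif, was at 1.87 ± 0.430 and 2.59 ± 0.623 (0.144). Of 9 genes for kinases and other enzymes that modify Nrf2, 0 passed (median 0.03), with Mapk8, a stress kinase, at 31.0 ± 5.38 FPKM in cKO and 25.7 ± 5.28 in WT (0.104).

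Of 13 nuclear cofactors and repressors of Nrf2, 2 fell with the block, 0 rose and 11 did not pass, where 7.59% of all genes fell. The median log2 difference of the list was −0.15, against 0.00 over all genes. Crebbp, an acetyltransferase that serves as a coactivator of Nrf2, was at 12.8 ± 2.67 FPKM in cKO and 17.0 ± 3.02 in WT (log2 difference −0.40, adjusted p = 0.469 without the block and 0.0355 with it). In the list of Nfe2l1 processing (10 genes, median −0.07) Ogt, which puts sugar on nuclear proteins, fell in the blocked fit while 9 genes missed the threshold. Ogt was at 34.8, 53.6, 26.4 and 25.5 FPKM in cKO libraries, against 66.0, 74.5, 44.8 and 32.5 in WT libraries (−0.62, adjusted p = 0.476 without the block and 0.00918 with it). Hcfc1, its partner, was at 18.2 ± 2.34 and 21.2 ± 1.92 (0.0886 with the block).

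Of 26 genes listed as Nrf2 targets 24 were measured, and with the block 1 rose and 23 did not pass, where 2.99% of all genes rose and 7.59% fell. Mafg, a target of Nrf2 as well, fell but was counted in the Bach1 list and not in this one. The difference was above 0 in 16 and below 0 in 8 of the 24 (median 0.09), against 50.7% above and 49.3% below 0 over all genes (median 0.00). Sesn2, a stress-induced sestrin, was at 14.4, 13.9, 12.5 and 12.2 FPKM in cKO libraries, all above the 11.5, 9.85, 10.6 and 10.2 of WT libraries (log2 difference 0.32, adjusted p = 0.453 without the block and 0.0451 with it). Abcc1, an exporter of glutathione conjugates, was at 6.21 ± 1.009 FPKM in cKO and 8.01 ± 1.45 in WT (adjusted p = 0.0811 with the block). Of 10 Bach1 targets 8 were measured (median 0.17), of which Mafg fell with the block while 7 missed the threshold, and Fth1, the ferritin heavy chain, was at 196 ± 13.7 and 175 ± 18.5 (0.146). Slc7a11, the cystine carrier, belongs to both lists and was not in the table, and 6 measured genes are in both.

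**Figure D5:**
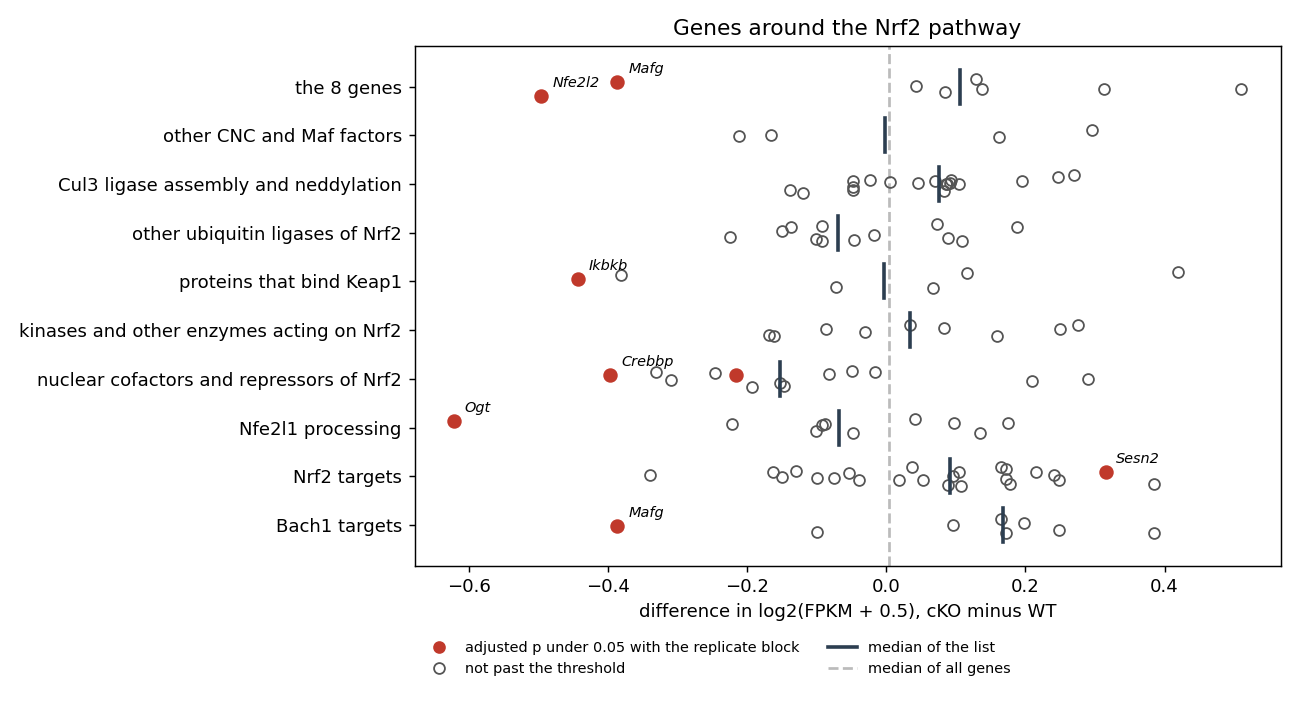
Difference in log2(FPKM + 0.5), cKO minus WT, of each measured gene of the 8 and of the 9 pathway lists (some genes are in more than 1 list), with filled red points for an adjusted p under 0.05 with the block and short bars for list medians. The named points are among the genes that passed, with Ogt the lowest of those that passed at −0.62 and Sesn2 the sole one above 0, at 0.32.

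The genes whose pattern over the 8 libraries was most like that of Nfe2l2 were Sirt7, Myh10, Pcnx, Wdr81 and Qars. Likeness was measured as the root mean square distance between centred log2 profiles, which was 0.0951 for Sirt7, 0.113 for Myh10, 0.114 for Pcnx, 0.116 for Wdr81 and 0.125 for Qars, where Nfe2l2 itself varied by 0.322 around its mean. Sirt7, the nearest, is the neighbour of Mafg on chromosome 11 described above. Myh10, a nonmuscle myosin, was at 37.1, 41.2, 39.2 and 27.7 FPKM in cKO libraries, against 57.5, 54.5, 63.1 and 47.3 in WT libraries. Like Nfe2l2 it was lowest in cKO 5 and highest in WT 4. Nearest to Mafg were Hdac10, a deacetylase (0.0535), Relch (0.0737) and Ppip5k1, an inositol phosphate kinase (0.0741), where Mafg varied by 0.385. Hdac10 was at 5.57, 7.65, 5.24 and 4.39 FPKM in cKO libraries, against 8.40, 10.9, 6.40 and 5.31 in WT libraries, the same order of libraries as for Mafg.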

How the data were processed

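Ribosome-bound RNA of Müller cells was sequenced in 4 cKO and 4 WT libraries, grouped by their titles. Per the labels, libraries were poly(A)-selected and directional. The authors deposited FPKM, and STAR, edgeR and the builds GRCm38 and mm10 are named in the submitters' processing notes, with neither version nor role. The counting program, its strand setting and its gene filter are not given in the sources used here, and each gene had a mean FPKM above 2, so genes below that could not be examined. Depth is unknown, so no counting interval was computed.

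Values were analysed as log2(FPKM + 0.5), which understates changes of low genes, with limma 3.58.1 in R 4.3.3 (eBayes with a trend), two-sided, p-values adjusted by Benjamini-Hochberg across the 12339 genes and called under 0.05. Differences are cKO minus WT. The script was tested on simulated data. Equal numbers paired the libraries by a rule requiring every correlation of deviations to exceed 0.1. Equal numbers gave 0.261 to 0.591, and unequal numbers −0.479 to 0.211. The block leaves 3 residual degrees of freedom instead of 6.

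Named genes were the 8 genes, Rpl22, list genes past the threshold with the block (otherwise the 2 with the smallest p), the 2 highest of marker lists, and the nearest profiles among genes with a mean FPKM of at least 5. Some genes under this rule are not reported here. Genes named outside this rule were chosen after their values were seen. The permutation within pairs was added after seeing the data. Members and lists were chosen with earlier results of these data known. Positions and exons are from the GENCODE mouse release M21, where 12327 gene IDs were found. Skp1 was matched as Skp1a.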

Additional observations from a re-analysis of the deposited data

How the results depend on the processing

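Without the replicate block, Nfe2l2 stayed lower and short of the threshold under each pseudocount, filter, scaling, weighting and covariate tried, and over the leave-one-out fits it ran from −0.59 (without cKO 3) to −0.38 (without cKO 5). With the block it passed at −0.50, and also at −0.51 and −0.48 (pseudocounts of 0.1 and 1), −0.50 (minimum mean FPKM of 5, and median-of-ratios scaling), −0.53 (equal sums) and −0.46 (quantiles). Without 1 pair it was −0.60 to −0.42 and passed once. With the block and the TEC measure covariate it reversed to 0.81 and did not pass. Genes past the threshold numbered 0 without the block, 1 with library weights, 1 with the Xist covariate and 1 in the libraries with Xist. With the block there were 1305, then 1285 and 1320 (pseudocounts of 0.1 and 1), 1276 (minimum of 5), 1350 (equal sums), 1300 (median of ratios), 1064 (quantiles), 73 (Xist covariate), 0 (TEC measure covariate) and 402, 606, 524 and 821 without pair 1, 3, 4 and 5. Of the 7 other genes 0 passed without the block and 1, Mafg, with it and with each of those pseudocounts, scalings and the filter. Without 1 pair this count was 0 to 1. In the pathway lists 6 genes passed with the block and 0 without. Keap1, never past the threshold, reversed to −0.10 with the TEC measure covariate, −0.085 with the Xist covariate and −0.044 in the libraries with Xist, and ran from −0.022 to 0.11 over the leave-one-out fits. Cul3 reversed to −0.17 with the block and the TEC measure covariate. The cause of these changes was not tested. The minimum mean FPKM of 5 removes Mafk and Maff, which have no value there. The Xist and TEC measure settings were chosen after seeing the data.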
